A study of Mus musculus with 48 samples.

Results

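High-confidence autism risk genes are genes in which rare damaging mutations recur in people with autism spectrum disorder. Here 33 of them were followed in the cortex of Chd8 V986*/+ mice and wild-type littermates. They were chosen by symbol from the 24444 genes of the deposited expression table, with earlier results of these data known. By their known roles they fall into 14 chromatin regulators, 5 transcription factors and cofactors, 9 synaptic and neuronal surface genes, and 5 other cellular enzymes.

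Autism risk genes fall largely into a nuclear class and a synaptic class. Chromatin regulators write, erase or read histone marks or remodel nucleosomes, and many are abundant in the fetal brain while neurons are being born. Synaptic risk genes encode scaffolds, adhesion molecules and receptor partners, and they are used most once neurons form connections. Chd8, the gene mutated in these mice, encodes a chromatin remodeller and is itself a leading autism risk gene.

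The V986* allele carries a CRISPR/Cas9 insertion that places stop codons within the coding sequence of Chd8, and the line came from a single male founder crossed back to C57BL/6J. RNA was sequenced from the cortex of male mice, at embryonic day 14.5 (E14.5) and 3 postnatal ages of 1, 6 and 12 months. Each age held 6 WT mice and 6 heterozygous (HET) Chd8 V986*/+ mice, 48 samples in all. All mice shared the C57BL/6J background, and the allele was the only difference named between the genotypes. The mutation is present in every cell of the body from conception. Since whole tissue was used, fewer cells of a type and less RNA per cell cannot be told apart.

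Values are variance-stabilized expression on the log2 scale, called VST below, and a difference of 1 is close to a doubling for genes well above the floor of 2.14. A gene was called where limma gave a Benjamini-Hochberg adjusted p (adjp) below 0.1 over all genes tested. All 33 genes lay far enough above the floor to be tested in every comparison. Katnal2 came closest to the floor, with group medians of 5.79 to 6.68.

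The Chd8 transcript was lower in Chd8 V986*/+ mice at every age, with no overlap between genotypes. At E14.5 its VST ran from 12.33 to 12.66 in WT mice, with a median of 12.60, and from 11.60 to 12.03 in HET mice, with a median of 11.98. HET embryos had 64.6% of the WT level (limma adjp 0.0261). HET mice had 62.7% at 1 month (adjp 3.01e-06), 64.2% at 6 months (adjp 1.07e-07) and 68.8% at 12 months (adjp 0.00261).

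The 33 genes share a property that their selection did not use, which is length. Their longest annotated transcripts had a median of 7.37 kb, against 3.002 kb over the genes tested, and 31 of the 33 lay in the longest 25%, which starts at 4.37 kb. The exceptions were Ptchd1 at 2.77 kb and Katnal2 at 2.04 kb. Gene spans in mm9 had a median of 118.1 kb, against 22.4 kb over all genes tested. The synaptic genes spanned a median of 422.6 kb and the chromatin regulators 91.3 kb, from 15.2 kb for Kdm6b to 2241 kb for Cntnap2.

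Long transcripts were low in 3 of the libraries. WT E14.5 replicate 1 was the lowest of its group for 27 of the 33 genes, HET E14.5 replicate 1 for 30, and WT 12 month replicate 6 for 32, while over all genes tested these libraries were lowest for 23.6%, 27.6% and 30.1%. Their median deviation from the other 5 libraries of the group was -0.40, -0.42 and -0.37 over the 33 genes, but 0.01, 0.01 and -0.02 over all genes tested. In the longest 25% of transcripts it was -0.18, -0.24 and -0.24, and in the shortest 25% 0.14, 0.20 and 0.19. In the other 45 libraries the median deviation of the 33 genes lay between -0.09 and 0.27, with the highest in WT 12 month replicate 2. Comparisons of genotypes at E14.5 and 12 months are given with and without these libraries. WT 12 month replicate 6 also lay at the edge of its group for markers of several cell types. Its mean VST was the lowest for markers of cortical excitatory neurons (11.22) and endothelium (9.30). It was the highest for markers of interneurons (11.34), astrocytes (12.57) and red blood cells (8.43), and at neither end for microglia and oligodendrocytes. The part of cell types in its low values was not tested.

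**Figure D1:**
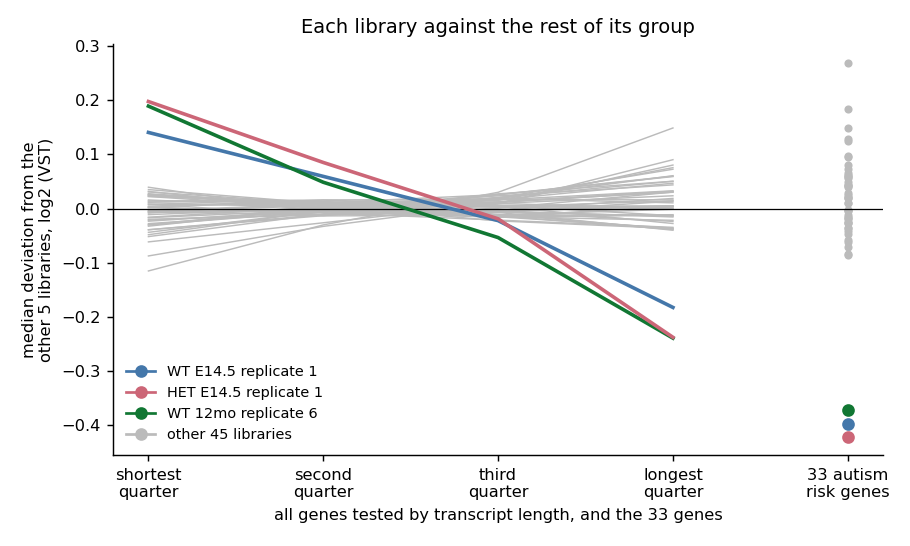
Median deviation of each of the 48 libraries from the other 5 of its group (y axis, log2 VST), with transcripts split into 4 classes of length and with the 33 autism risk genes shown separately. WT E14.5 replicate 1, HET E14.5 replicate 1 and WT 12 month replicate 6 lie at -0.40, -0.42 and -0.37 for the 33 genes and above 0 for the shortest transcripts.

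Promoters that could be found for the 33 genes held more CpG than promoters of the genome at large. Of the 33, 25 had an entry in the RefSeq promoter table (GRCm38.p6), giving 38 promoters that each cover 300 bases around a transcription start. They held a median of 19 CpG, against 7 over all 32851 promoters of the table. At least 1 CpG was present in all 38 of these and in 94.6% of all promoters. Fewer than 10 CpG were found in 28.9% of the promoters of these genes and in 56.5% of all promoters. All promoters include those of genes not tested here, and promoters of the genes tested were not compared. The roles differed, with a median of 25 CpG for the chromatin regulators and 9.5 for the transcription factors and cofactors. Some genes count more than once, with 5 promoters for Myt1l and 4 for Ank2. The dinucleotide CG reads the same on both strands and cannot overlap itself. The promoters of Kdm5b and Shank3 are printed. Among members with an entry that could be shown, these changed most between E14.5 and 1 month, in each direction. Kdm5b encodes a histone demethylase and lies on the plus strand at chr1:136456748-136529454 of mm9, and its promoter at chr1:136456505-136456804 held 17 CpG and was 54.7% G or C. Shank3 encodes a postsynaptic scaffold and lies on the plus strand at chr15:89330054-89390692 of mm9, and its promoter at chr15:89329789-89330088 held 40 CpG and was 81.0% G or C. Both windows overlap the annotated start of the gene, and both were located in mm9 by an exact match. Each is printed 5′ to 3′ with every CpG in capitals.
Kdm5b promoter: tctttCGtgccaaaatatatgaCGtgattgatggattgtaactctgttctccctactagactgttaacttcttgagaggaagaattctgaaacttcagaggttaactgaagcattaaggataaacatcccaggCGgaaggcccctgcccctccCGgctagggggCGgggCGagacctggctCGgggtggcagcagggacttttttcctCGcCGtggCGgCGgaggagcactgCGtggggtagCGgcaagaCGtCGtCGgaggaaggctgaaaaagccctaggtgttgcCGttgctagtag
Shank3 promoter: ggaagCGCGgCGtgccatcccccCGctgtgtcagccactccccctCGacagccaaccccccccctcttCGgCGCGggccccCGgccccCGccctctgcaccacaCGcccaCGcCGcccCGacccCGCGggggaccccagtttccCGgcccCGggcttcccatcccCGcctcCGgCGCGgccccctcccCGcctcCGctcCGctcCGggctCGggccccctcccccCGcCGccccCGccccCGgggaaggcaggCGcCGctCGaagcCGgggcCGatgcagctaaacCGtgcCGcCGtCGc

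Between E14.5 and 1 month the chromatin regulators mostly fell and the synaptic scaffolds rose, in both genotypes. In WT mice 32 of the 33 genes were called, 11 higher and 21 lower at 1 month, against 85.7% of all genes tested (43.4% higher and 42.3% lower). This share is near the background, so the count by itself says little about these genes. Their direction differed from that of all genes, with a median difference of -0.36, against 0.02 over all genes tested. In HET mice 30 were called, 10 higher and 20 lower, against 86.1% of all genes (43.7% higher and 42.4% lower), with medians of -0.40 and 0.02. The 2 genotypes were fitted on separate mice. All 33 genes had the same sign in both, as had 95.6% of all genes tested. The embryos and the mice of 1 month did not overlap for 23 of the 33 genes in WT and 21 in HET mice, against 68.5% and 69.4% of all genes.

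**Figure D2:**
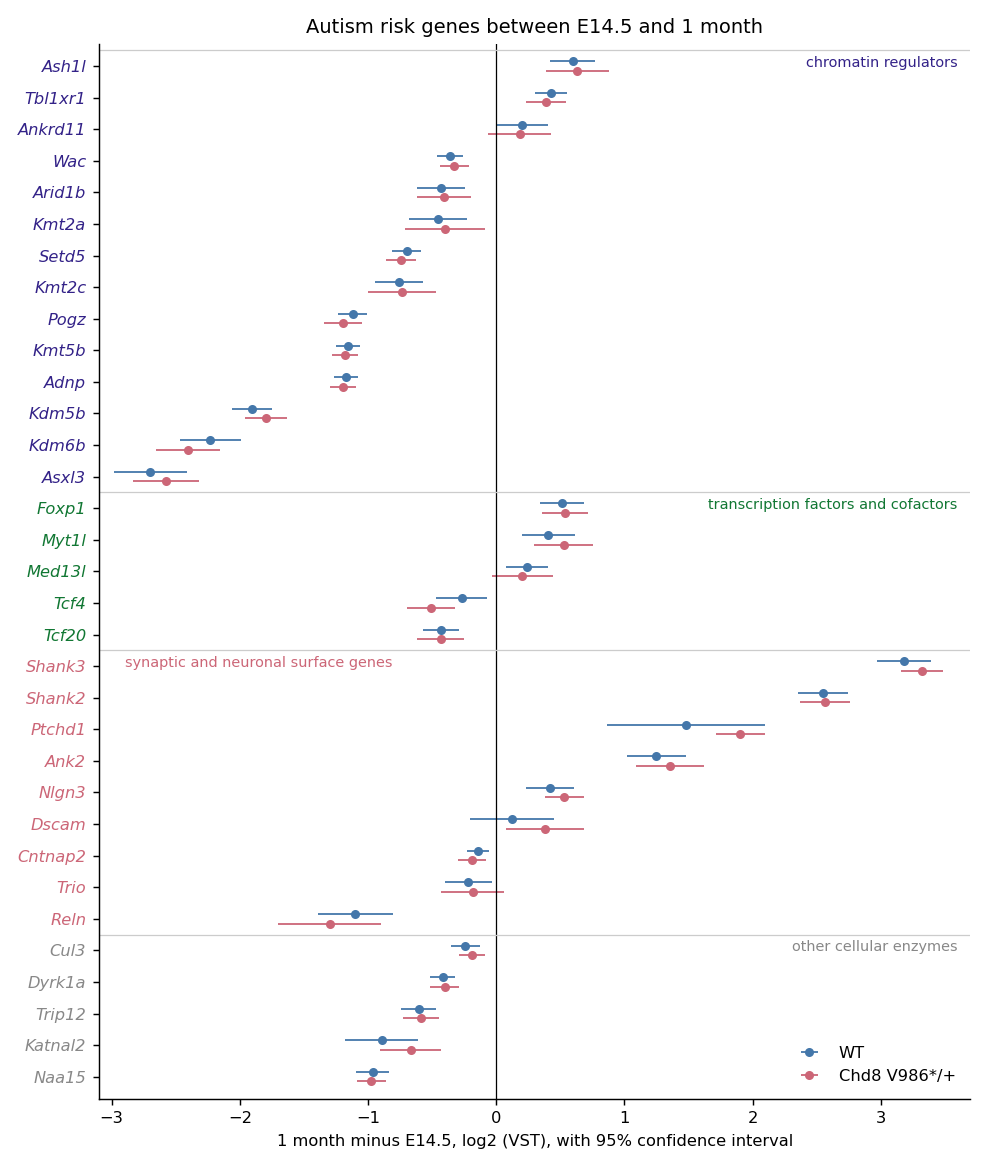
Difference in VST between 1 month and E14.5 (x axis, log2, 1 month minus E14.5) for each of the 33 genes, grouped by role, with 95% confidence intervals from 6 mice per group, for WT and HET mice. Shank3 and Shank2 lie farthest to the right at 3.18 and 2.55 in WT mice, and Asxl3 and Kdm6b farthest to the left at -2.70 and -2.23.

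Of the 14 chromatin regulators, 11 fell and 3 rose in WT mice, with a median difference of -0.73, and the sign of 1 of the 3, Ankrd11, turned under quantile normalization. In HET mice 11 fell and 2 rose, with a median of -0.74. The histone demethylase Kdm6b and the Polycomb-associated protein Asxl3 fell most.

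Asxl3, a partner of the Bap1 histone deubiquitinase, had a VST of 10.78 to 11.75 in WT embryos, with a median of 11.47, and of 8.51 to 8.85 at 1 month, with a median of 8.73. In HET mice it ran from 10.56 to 11.51 at E14.5, with a median of 11.27, and from 8.50 to 8.82 at 1 month, with a median of 8.60. The ages did not overlap in either genotype. The log2 fold-change was -2.70 ± 0.135 (SE, n = 6 and 6, limma adjp 2.07e-11) in WT mice and -2.58 ± 0.122 (limma adjp 5.4e-12) in HET mice, a 6.49-fold and a 5.96-fold decrease.

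Kdm6b, which removes a repressive methyl mark from histone tails, ran from 12.06 to 12.90 in WT embryos and from 10.22 to 10.52 at 1 month, with medians of 12.60 and 10.32. In HET mice the ranges were 11.92 to 12.83 and 10.03 to 10.30, with medians of 12.61 and 10.13. Every embryo was above every mouse of 1 month. Its log2 fold-change was -2.23 ± 0.111 (SE, limma adjp 1.9e-11) in WT mice and -2.40 ± 0.118 (limma adjp 8.17e-12) in HET mice. Kdm5b, another demethylase, ran from 12.59 to 13.09 in WT embryos and from 10.92 to 11.15 at 1 month, with medians of 12.98 and 11.02. In HET mice it ran from 12.44 to 13.00 and from 10.87 to 11.07, with medians of 12.87 and 11.05. These ranges were also separate. It fell by 1.91 ± 0.074 on the log2 scale in WT mice (SE, limma adjp 9.2e-13) and by 1.80 ± 0.078 in HET mice (limma adjp 1.64e-12).

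Adnp, a zinc finger protein of a nucleosome remodelling complex, went from a WT median of 12.95 to 11.77, a log2 fold-change of -1.17 ± 0.043 (SE, limma adjp 5.02e-13), and differed by -1.19 in HET mice. Kmt5b, a histone methyltransferase, and Pogz, a zinc finger protein that binds heterochromatin proteins, each fell by a similar amount, at -1.16 and -1.12 in WT mice and -1.18 and -1.20 in HET mice. For these 3 genes the embryos and the mice of 1 month did not overlap in either genotype. Kmt2c and Kmt2a, both histone methyltransferases of active chromatin, differed by -0.76 and -0.45 in WT mice. Setd5, a SET domain protein, differed by -0.70, Arid1b, a subunit of the BAF remodelling complex, by -0.43, and Wac, an adaptor for histone ubiquitination, by -0.36. All 5 were called in both genotypes. Kmt2a and Arid1b overlapped between the ages in both genotypes, and Kmt2c in HET mice.

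The chromatin regulators that rose were Ash1l, a histone methyltransferase, and Tbl1xr1, a subunit of the NCoR corepressor complex. Ash1l ran from 11.56 to 12.11 in WT embryos and from 12.43 to 12.66 at 1 month, and the log2 fold-changes were 0.60 in WT and 0.63 in HET mice. Tbl1xr1 rose by 0.43 and 0.39. Neither gene overlapped between the ages. Ankrd11, a cofactor that binds histone deacetylases, was called higher in WT mice at 0.20 ± 0.094 (SE, limma adjp 0.0596), with overlapping ages, and was not called in HET mice (0.18, limma adjp 0.153). It changed sign in both genotypes under quantile normalization, so no direction is given to it.

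The 5 transcription factors and cofactors were divided. Foxp1, a forkhead factor, and Myt1l, a zinc finger factor of postmitotic neurons, rose by 0.52 and 0.41 in WT mice and by 0.54 and 0.53 in HET mice. Tcf20, a nuclear coregulator, fell by 0.43 in each genotype, and Tcf4, a basic helix-loop-helix factor, by 0.27 in WT and 0.51 in HET mice. Med13l, of the kinase module of Mediator, rose by 0.24 in WT mice and was not called in HET mice (0.20, limma adjp 0.104). The medians over these 5 genes were 0.24 in WT and 0.20 in HET mice.

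Among the 9 synaptic and neuronal surface genes, 5 rose and 3 fell in WT mice, with a median of 0.42, and 6 rose and 2 fell in HET mice, with a median of 0.53. The group was less uniform than the chromatin regulators, since the scaffolds and the extracellular protein Reln moved in opposite directions.

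Shank3, which organizes the postsynaptic density under glutamate receptors, ran from 9.85 to 10.42 in WT embryos, with a median of 10.22, and from 13.11 to 13.62 at 1 month, with a median of 13.39. In HET mice it ran from 9.86 to 10.36 and from 13.44 to 13.71, with medians of 10.21 and 13.46. The gap between the ages was larger than the range within any group. The log2 fold-change was 3.18 ± 0.097 (SE, limma adjp 5.32e-14) in WT mice and 3.32 ± 0.076 (limma adjp 5.85e-16) in HET mice, a 9.08-fold and a 10.01-fold rise. Its family member Shank2 ran from 10.08 to 10.66 in WT embryos and from 12.87 to 13.09 at 1 month, with medians of 10.54 and 13.01. In HET mice the ranges were 9.99 to 10.71 and 12.90 to 13.06, with medians of 10.45 and 13.00. Shank2 thus rose without overlap, by 2.55 ± 0.093 (SE, limma adjp 3.98e-13) in WT mice and 2.57 ± 0.092 (limma adjp 1.42e-13) in HET mice.

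Ptchd1, a membrane protein with a patched domain, ran from 6.87 to 8.98 in WT embryos, the widest range of any of these genes in a group, and from 9.46 to 9.80 at 1 month. In HET mice it ran from 7.46 to 7.97 and from 9.43 to 9.73. It rose by 1.48 ± 0.288 in WT mice (SE, limma adjp 0.000194) and by 1.91 ± 0.089 in HET mice (limma adjp 4.3e-12). Ank2, an ankyrin that anchors membrane proteins to the spectrin skeleton, ran from 12.93 to 13.75 in WT embryos and from 14.57 to 14.79 at 1 month. In HET mice it ran from 12.64 to 13.59 and from 14.53 to 14.75. Ank2 rose by 1.25 ± 0.108 (SE, limma adjp 2.13e-08) and 1.36 ± 0.123 (limma adjp 2.7e-08). Nlgn3, a postsynaptic adhesion molecule that binds neurexins, rose by 0.42 in WT and 0.53 in HET mice. None of these 3 genes overlapped between the ages.

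Reln, secreted by Cajal-Retzius cells in the embryo and by interneurons later, moved the other way. It ran from 11.86 to 12.83 in WT embryos and from 11.24 to 11.67 at 1 month, and fell by 1.10 (limma adjp 1.69e-06). In HET mice it ran from 11.66 to 13.04 and from 10.93 to 11.67, and fell by 1.30 ± 0.188 (SE, limma adjp 7.54e-06). Cntnap2, which clusters potassium channels along axons, fell by 0.14 in WT and 0.19 in HET mice. Trio, an exchange factor for small GTPases that guides axons, was called only in WT mice at -0.22, against -0.18 in HET mice (limma adjp 0.154). Dscam, a cell adhesion molecule, was called only in HET mice at 0.38, against 0.13 in WT mice (limma adjp 0.456). The test of the difference between the genotypes called neither gene (limma adjp 0.998 for each).

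All 5 enzymes fell in both genotypes, with medians of -0.60 and -0.59. The WT log2 fold-changes were -0.96 for Naa15, a subunit of the N-terminal acetyltransferase, and -0.89 for Katnal2, a katanin-like protein of microtubules. Trip12, a ubiquitin ligase, differed by -0.60, the kinase Dyrk1a by -0.42 and the ubiquitin ligase scaffold Cul3 by -0.24. All but Cul3 were separate between the ages.

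Averaged within each mouse, the 14 chromatin regulators had a VST of 12.25 ± 0.164 (SD, n = 6) in WT embryos and 11.41 ± 0.041 at 1 month. The 9 synaptic genes went from 11.31 ± 0.281 to 12.15 ± 0.0584. In HET mice the chromatin mean went from 12.20 ± 0.225 to 11.36 ± 0.0558 and the synaptic mean from 11.20 ± 0.245 to 12.13 ± 0.0364. The lowest embryo mean of the chromatin group was 11.94 in WT and 11.76 in HET mice, above the highest means at 1 month of 11.48 and 11.43. The synaptic means were separate in the other direction, with highest embryo means of 11.57 and 11.40 and lowest means at 1 month of 12.08 in each genotype. These group means are descriptions, since the roles were assigned with earlier results known.

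**Figure D3:**
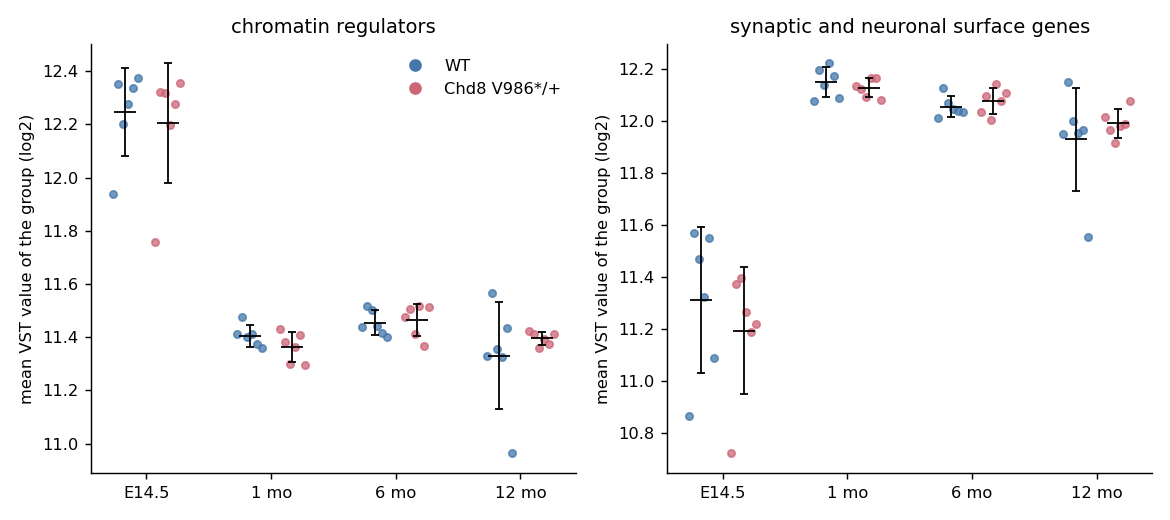
Mean VST per mouse (y axis, log2) over the 14 chromatin regulators and over the 9 synaptic and neuronal surface genes at E14.5, 1, 6 and 12 months (x axis), with points for mice and bars for the group mean ± SD of 6 mice. The chromatin mean goes from 12.25 to 11.41 between E14.5 and 1 month in WT mice while the synaptic mean goes from 11.31 to 12.15, and 1 WT mouse of 12 months lies below the other mice of its age in both groups.

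Genes of the same classes outside the 33 are given for comparison, from lists also set with earlier results known. Of 45 other chromatin regulators, 39 fell and 2 rose in WT mice, with a median of -1.04. Of 37 other synaptic genes, 36 rose and 0 fell by the same limma test, with a median of 2.33. The synaptic risk genes thus had a lower median than the other synaptic genes, at 0.42, and 3 of their 9 members fell. With the 5 genes that encode synaptic adhesion, scaffold and membrane proteins in the strict sense (Cntnap2, Nlgn3, Ptchd1, Shank2 and Shank3) the WT median was 1.48. Of 33 other autism risk genes, which share 4 genes with the chromatin list and 6 with the synaptic list, 11 rose and 20 fell, with a median of -0.47.

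Markers of the cell types of the cortex also differed between these ages. In WT mice the mean VST of radial progenitor markers lay between 11.40 and 12.05 at E14.5 and between 8.42 and 8.84 at 1 month. Intermediate progenitor markers lay at 10.10 to 11.04 and 5.14 to 6.01. Oligodendrocyte markers lay at 6.33 to 6.89 in embryos and 13.77 to 14.18 at 1 month, astrocyte markers at 7.28 to 7.86 and 12.34 to 12.53, and interneuron markers at 8.34 to 8.83 and 11.04 to 11.18. Progenitor markers were thus lower and glial and interneuron markers higher in every mouse of 1 month. Markers of cortical excitatory neurons overlapped, at 11.02 to 12.07 and 11.54 to 11.85. Their part in the changes of the 33 genes was not tested. Without the low E14.5 libraries (replicate 1 of each genotype) 11 genes rose and 21 fell in WT mice, with a median of -0.39, and 10 rose and 21 fell in HET mice, with a median of -0.44. Under quantile normalization the median of all genes shifted by -0.13 in each genotype, and 8 rose and 21 fell in WT mice.

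The level of every gene at all 4 ages is given next by its group medians, in the order E14.5, 1, 6 and 12 months, beginning with the chromatin regulators. Asxl3 had WT medians of 11.47, 8.73, 8.65 and 8.51 and HET medians of 11.27, 8.60, 8.62 and 8.64. Kdm6b stood at 12.60, 10.32, 10.19 and 9.98 in WT mice and at 12.61, 10.13, 10.29 and 9.97 in HET mice. Kdm5b gave medians of 12.98, 11.02, 11.06 and 10.94 in WT mice and 12.87, 11.05, 11.09 and 10.90 in HET mice. These 3 genes had their highest median in the embryo and stayed low at the postnatal ages, where Kdm6b drifted by at most 0.34 between medians. Adnp had WT medians of 12.95, 11.77, 11.81 and 11.79 and HET medians of 12.95, 11.76, 11.83 and 11.81. Kmt5b stood at 12.03, 10.85, 10.75 and 10.71 in WT mice and at 11.94, 10.73, 10.79 and 10.73 in HET mice. Pogz gave medians of 12.03, 10.88, 10.84 and 10.84 in WT mice and 12.09, 10.84, 10.94 and 10.92 in HET mice. Postnatal medians of these 3 genes stayed within 0.14 of each other in each genotype. Setd5 had WT medians of 12.46, 11.73, 11.73 and 11.62 and HET medians of 12.49, 11.71, 11.68 and 11.72. Arid1b stood at 12.35, 11.85, 11.82 and 11.73 in WT mice and at 12.29, 11.80, 11.79 and 11.80 in HET mice. Wac gave medians of 11.98, 11.60, 11.62 and 11.51 in WT mice and 11.99, 11.62, 11.55 and 11.54 in HET mice. The drop from E14.5 to 1 month was smaller here, and postnatal medians again lay within 0.12 of each other. Kmt2c had WT medians of 12.63, 11.80, 11.82 and 11.77 and HET medians of 12.58, 11.72, 11.93 and 11.76. Kmt2a stood at 12.77, 12.28, 12.64 and 12.55 in WT mice and at 12.79, 12.23, 12.67 and 12.50 in HET mice. Kmt2a was the chromatin regulator with the widest range of medians from 1 to 12 months, and its median at 6 months came back close to that of the embryo. Ash1l gave medians of 11.97, 12.51, 12.77 and 12.66 in WT mice and 12.05, 12.56, 12.78 and 12.75 in HET mice. Tbl1xr1 had WT medians of 11.16, 11.62, 11.72 and 11.65 and HET medians of 11.25, 11.62, 11.69 and 11.74. Ankrd11 stood at 12.63, 12.75, 12.78 and 12.75 in WT mice and at 12.69, 12.75, 12.89 and 12.77 in HET mice. In all, 11 of the 14 chromatin regulators had their highest median at E14.5 in both genotypes, and these last 3 had their lowest there.

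For the transcription factors all postnatal medians lay on the same side of the embryo. Foxp1 gave medians of 11.30, 11.91, 11.99 and 11.85 in WT mice and 11.35, 11.94, 11.87 and 11.98 in HET mice. Myt1l had WT medians of 12.63, 13.08, 13.11 and 13.00 and HET medians of 12.53, 13.14, 13.05 and 13.04. Med13l stood at 11.85, 12.03, 12.11 and 12.00 in WT mice and at 11.89, 12.05, 12.19 and 12.07 in HET mice. For these 3 the embryo had the lowest median in both genotypes. Tcf4 gave medians of 13.72, 13.47, 13.49 and 13.41 in WT mice and 13.98, 13.49, 13.50 and 13.40 in HET mice. Tcf20 had WT medians of 12.39, 11.96, 12.11 and 11.95 and HET medians of 12.50, 12.02, 12.15 and 12.07. For these 2 it had the highest.

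Among the synaptic and neuronal surface genes the embryo was lowest for 5 of 9 and highest for 3 of 9. Shank3 stood at 10.22, 13.39, 13.31 and 13.27 in WT mice and at 10.21, 13.46, 13.33 and 13.20 in HET mice. Shank2 gave medians of 10.54, 13.01, 12.74 and 12.59 in WT mice and 10.45, 13.00, 12.73 and 12.59 in HET mice. Ank2 had WT medians of 13.45, 14.68, 14.62 and 14.55 and HET medians of 13.38, 14.69, 14.67 and 14.57. All 3 reached their highest median at 1 month, and the medians of Shank2 were lower at each later age. Ptchd1 stood at 8.41, 9.67, 9.51 and 9.38 in WT mice and at 7.56, 9.51, 9.51 and 9.38 in HET mice. Nlgn3 gave medians of 11.20, 11.61, 11.47 and 11.40 in WT mice and 11.12, 11.63, 11.44 and 11.36 in HET mice. Nlgn3 also peaked at 1 month, and Ptchd1 did so in WT mice and was level between 1 and 6 months in HET mice. Reln had WT medians of 12.68, 11.44, 11.44 and 11.42 and HET medians of 12.76, 11.37, 11.51 and 11.53. Cntnap2 stood at 11.77, 11.62, 11.68 and 11.67 in WT mice and at 11.76, 11.60, 11.74 and 11.72 in HET mice. Trio gave medians of 12.93, 12.68, 12.57 and 12.43 in WT mice and 12.94, 12.63, 12.67 and 12.46 in HET mice. For these 3 the embryo had the highest median. Dscam had WT medians of 11.36, 11.29, 11.18 and 11.03 and HET medians of 10.91, 11.21, 11.06 and 11.08. For Dscam the embryo had the highest median in WT mice and the lowest in HET mice.

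The enzymes had their highest median at E14.5 in both genotypes, all 5 of 5. Naa15 stood at 11.99, 11.05, 11.13 and 11.08 in WT mice and at 12.07, 11.06, 11.10 and 11.01 in HET mice. Katnal2 gave medians of 6.68, 5.79, 6.24 and 5.94 in WT mice and 6.56, 5.89, 5.94 and 5.93 in HET mice. Trip12 had WT medians of 13.28, 12.64, 12.66 and 12.64 and HET medians of 13.22, 12.63, 12.68 and 12.62. Katnal2 is the member closest to the floor, and its postnatal medians moved by up to 0.46 in WT mice. Dyrk1a stood at 12.02, 11.63, 11.68 and 11.64 in WT mice and at 12.09, 11.63, 11.68 and 11.67 in HET mice. Cul3 gave medians of 12.46, 12.20, 12.35 and 12.30 in WT mice and 12.53, 12.30, 12.33 and 12.32 in HET mice. Over the 33 genes the embryo had the highest median for 21, the lowest for 11, in both genotypes each, and for Dscam the genotypes differed in this order.

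After 1 month changes were small. Between 1 and 6 months 7 of the 33 genes were called in WT mice, against 24.6% of all genes tested, and 10 in HET mice, against 26.8%. The members called are shared in part. Ash1l, Kmt2a, Tcf20, Nlgn3 and Shank2 were called in both genotypes, which is 71.4% of those called in WT mice and 50% of those called in HET mice. Over all genes tested the corresponding shares were 66.3% and 61%.

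Kmt2a ran from 12.05 to 12.46 in WT mice of 1 month and from 12.45 to 12.81 at 6 months, and from 12.06 to 12.38 and 12.52 to 12.94 in HET mice. The ages met at the edge in WT mice and were separate in HET mice. Kmt2a rose by 0.37 ± 0.075 (SE, limma adjp 0.00233) in WT mice and by 0.46 ± 0.068 (limma adjp 0.000195) in HET mice. Ash1l rose by 0.27 in each genotype, with SEs of 0.043 and limma adjp of 0.000447 in WT mice, where it went from 12.43 to 12.66 to 12.74 to 12.90 without overlap. Tcf20 rose by 0.17 in WT and 0.15 in HET mice, and the WT call was lost in a single fit of all 48 samples (limma adjp 0.14). In WT mice Katnal2 at 0.38 ± 0.127 (SE, limma adjp 0.0454) and Cul3 at 0.13 (limma adjp 0.047) were also called higher, and the call of Katnal2 was lost without WT 6 month replicate 6 (limma adjp 0.1). In HET mice Kmt2c at 0.23, Cntnap2 at 0.16, Ankrd11 at 0.14 and Med13l at 0.13 were called higher, and the single fit lost the call of Kmt2c (limma adjp 0.126).

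The synaptic genes called over this interval were mostly lower. Shank2 ran from 12.87 to 13.09 in WT mice of 1 month and from 12.48 to 12.83 at 6 months, and from 12.90 to 13.06 and 12.64 to 12.83 in HET mice. All mice of 6 months were below all mice of 1 month. Shank2 fell by 0.31 ± 0.058 (SE, limma adjp 0.00147) in WT mice and by 0.26 ± 0.040 (limma adjp 0.000274) in HET mice. Nlgn3 fell by 0.13 ± 0.050 in WT mice (SE, limma adjp 0.0865) and by 0.18 in HET mice (limma adjp 0.00749). The WT call of Nlgn3 was lost without any one of WT 1 month replicates 2, 3 and 4 and WT 6 month replicates 1, 3, 4, 5 and 6, with limma adjp up to 0.165 without WT 1 month replicate 2. Shank3 was called lower only in HET mice, at -0.15 (limma adjp 0.0865), and this was lost without any one of HET 1 month replicates 3 and 4 and HET 6 month replicates 1, 2 and 6, with limma adjp up to 0.177 without HET 1 month replicate 3. Over the same interval all 6 oligodendrocyte markers were called lower in both genotypes, with median differences of -0.87 in WT and -1.03 in HET mice. Of 5 red blood cell markers 4 were called lower in each, with medians of -0.60 and -0.79, and of 6 astrocyte markers 4 in WT and 1 in HET mice, with medians of -0.20 and -0.03. Microglia markers were called lower for 4 of 6 in WT and 0 of 6 in HET mice by limma, with 0 of 6 in HET mice at an unadjusted p below 0.05. The part of these markers in the changes of the 33 genes was not tested.

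Between 6 and 12 months 0 of the 33 genes were called in WT mice by limma, with 2 at an unadjusted p below 0.05 against 6.75% of all genes, and 0.00579% of all genes were called. All 33 WT differences were nonetheless negative, with a median of -0.11, against -0.01 over all genes tested. Without WT 12 month replicate 6, which is low for long transcripts, 30 were negative and the median was -0.04. Over all genes tested 9003 of 17284 were then negative. In HET mice 3 genes were called lower, against 3.43% of all genes tested (2.36% lower). These were Shank2 at -0.19 ± 0.050 (SE, limma adjp 0.067), Kmt2c at -0.15 ± 0.040 (limma adjp 0.0696) and Trio at -0.16 ± 0.045 (limma adjp 0.0862). The count was 0 without HET 6 month replicate 2, 3 or 4 or HET 12 month replicate 2, 1 without HET 12 month replicate 3, 4 or 5, and 6 without HET 6 month replicate 5. With a replicate block the call of Trio was lost (limma adjp 0.12).

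**Figure D4:**
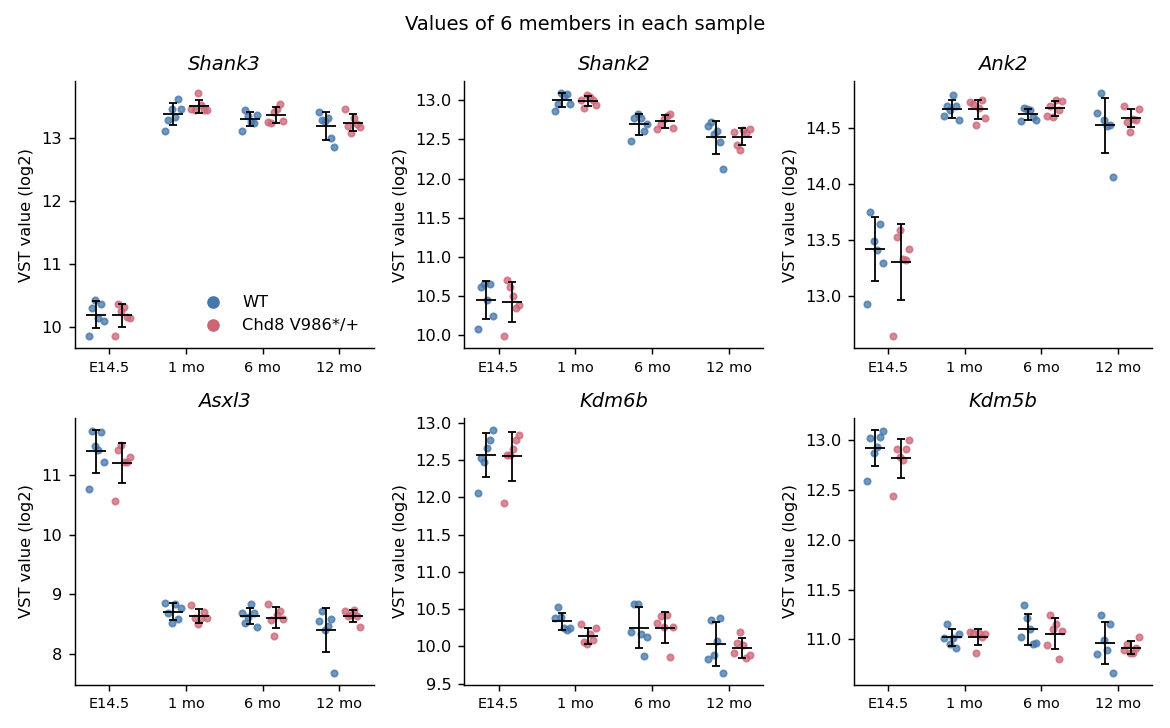
VST (y axis, log2) of Shank3, Shank2, Ank2, Asxl3, Kdm6b and Kdm5b in each mouse at E14.5, 1, 6 and 12 months (x axis), with WT and HET mice side by side and bars for the mean ± SD of 6 mice. E14.5 stands apart from every later age, above it for Asxl3, Kdm6b and Kdm5b and below it for Shank3, Shank2 and Ank2, while the genotypes overlap at every age.

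The main question of the design is whether heterozygous loss of Chd8 shifts these genes. By limma 0 of the 33 were called between genotypes at E14.5, against 0.00593% of all genes tested, 0 at 1 month, against 0.139%, 0 at 6 months, against 0.0927%, and 0 at 12 months, against 0.0463%. At an unadjusted p below 0.05 there were 0, 2, 1 and 2 genes, while over all genes tested this share was 4.56%, 8.8%, 7.59% and 11.6%. The WT and HET mice overlapped for all 33 genes at all 4 ages, and over all genes tested the groups did not overlap for 0.261%, 0.825%, 0.527% and 0.868%. Since so few genes of any kind were called, the absence of calls is near the background. The authors' DESeq2 test of the same samples, at the same threshold and with batch in the model, reported more genes that differed between genotypes. A gene without a call here is thus not shown to be unchanged.

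The differences themselves were small at most ages. The median HET minus WT difference over the 33 genes was -0.02, -0.01, 0.01 and 0.05 at the successive ages, while over all genes tested it was within 0.01 of 0 at each age. The 95% confidence interval lay within 0.5 of 0 for 29, 33, 32 and 32 of the 33 genes. At 1 month the intervals of all 33 genes lay between -0.33 and 0.32. The decrease of Chd8 itself at that age, -0.67, lay outside all of these intervals.

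**Figure D5:**
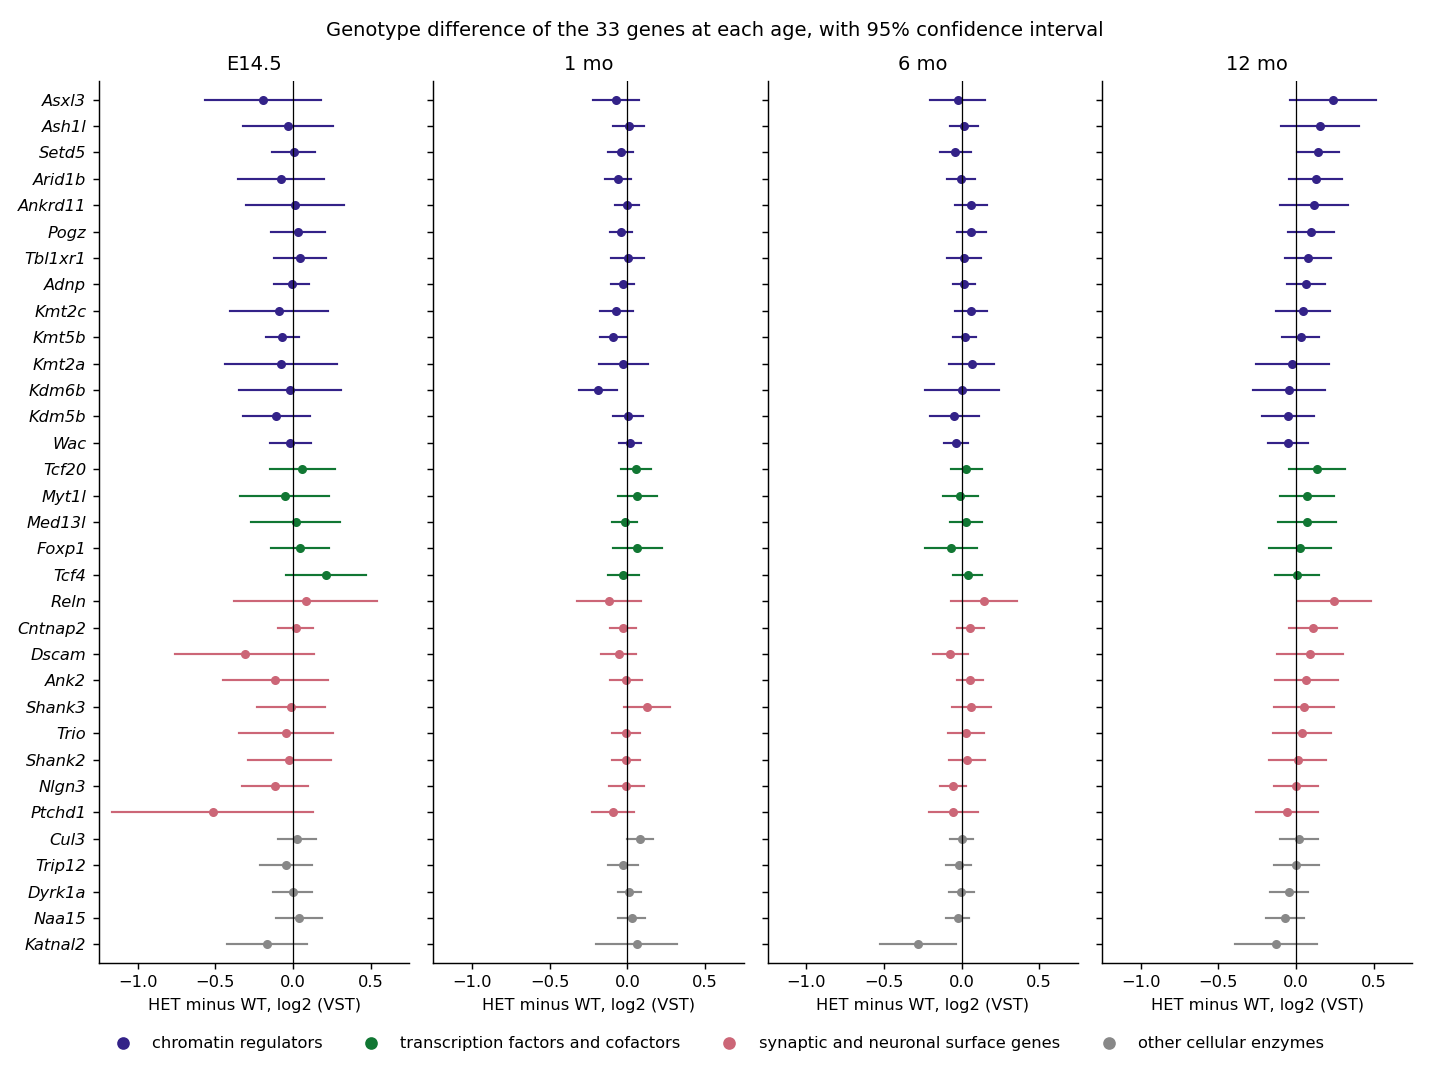
HET minus WT difference in VST (x axis, log2) for each of the 33 genes at E14.5, 1, 6 and 12 months, with 95% confidence intervals from 6 and 6 mice. Intervals are widest at E14.5, where they reach from -1.16 to 0.54, and narrowest at 1 month, where they stay between -0.33 and 0.32.

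The chromatin regulators and the synaptic genes were compared by their median differences, with none of their members called. Median differences of the chromatin regulators were -0.02, -0.04, 0.01 and 0.07 at the 4 ages, and those of the synaptic genes -0.04, -0.01, 0.04 and 0.05. The transcription factors had medians of 0.05, 0.06, 0.03 and 0.07, and the enzymes of -0.0022, 0.03, -0.02 and -0.04. Without WT 12 month replicate 6 the medians at 12 months were 0.01 for the chromatin regulators, -0.02 for the synaptic genes, -0.01 for the transcription factors and -0.05 for the enzymes. Without replicate 1 of each genotype the medians at E14.5 were 0.0012, -0.02, 0.07 and 0.02 in the same order. The sign of the 12 month median thus turned for the synaptic genes and the transcription factors when a single WT library was left out.

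At E14.5 the lowest p-values belonged to Tcf4, Ptchd1 and Dscam, all at a limma adjp of 0.982. Tcf4 ran from 13.51 to 14.19 in WT and from 13.63 to 14.30 in HET embryos, with medians of 13.72 and 13.98, and differed by 0.21 ± 0.119 (SE, 95% interval -0.04 to 0.47). Ptchd1 had VST values of 7.49, 8.82, 8.74, 8.07, 8.98 and 6.87 in the 6 WT embryos and of 7.53, 7.59, 7.97, 7.80, 7.53 and 7.46 in the 6 HET embryos. WT embryos were thus both above and below the HET embryos. The difference was -0.52 ± 0.301 (SE, 95% interval -1.16 to 0.13). Dscam ran from 10.56 to 11.55 in WT and from 10.14 to 11.30 in HET embryos and differed by -0.31 ± 0.209 (SE, 95% interval -0.76 to 0.14).

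Markers of other parts of the nervous system varied among the same embryos. The mean VST of 32 markers of midbrain, hindbrain and spinal cord was 3.68, 5.04, 5.11, 4.36, 6.68 and 3.41 in the 6 WT embryos, in the order in which Ptchd1 is given, and lay between 3.34 and 4.50 in HET embryos. The WT embryo with the lowest marker mean also had the lowest Ptchd1, and the embryo with the highest mean the highest Ptchd1. Of the 32 markers, 4 were near the floor in WT and 14 in HET embryos. All 26 that could be tested had a negative HET minus WT difference, with a median of -1.19. By limma 0 were called and 8 had an unadjusted p below 0.05. The filter used the mean over both genotypes, so a marker near the floor in HET embryos could pass only through the WT embryos. The sign of such markers was fixed by the filter, so the count and median over the 26 are no evidence of a difference. Markers that were not near the floor in HET embryos could have had either sign. The mean over all 32 markers, taken without a filter, was 4.71 ± 1.19 (SD, n = 6) in WT and 3.75 ± 0.423 in HET embryos, and the groups overlapped. With this mean as a covariate the Ptchd1 difference was 0.06, that of Dscam -0.0024 and that of Tcf4 0.07. Other marker lists also differed. Cortical excitatory neuron markers were higher in HET embryos for 7 of 7, with a median of 0.36. Ganglionic eminence and striatum markers were higher for 9 of 10, with a median of 0.22. Interneuron markers were lower for 6 of 7, with a median of -0.14. Of these, 0 were called by limma. The covariate fit is an alternative setting only, and the part of any of these markers in the genotype differences was not tested. Without replicate 1 of each genotype the median SE fell to 0.06 and the median difference was 0.00, with 18 of 33 genes positive against 12 before. Of the 33, 0 were then called by limma and 1 had an unadjusted p below 0.05, which was Tcf4 at 0.28 (limma adjp 0.802).

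At 1 month the lowest p-values belonged to Kdm6b, Kmt5b and Cul3. Kdm6b ran from 10.22 to 10.52 in WT and from 10.03 to 10.30 in HET mice, with medians of 10.32 and 10.13. The ranges overlapped at their ends, and the difference of -0.19 ± 0.059 (SE, 95% interval -0.31 to -0.07) missed the threshold at a limma adjp of 0.337. Within replicates 1 to 3 it was -0.31 and within replicates 4 to 6 it was -0.07. Kmt5b differed by -0.09 ± 0.040 (SE, limma adjp 0.525) and Cul3 by 0.08 ± 0.039 (SE, limma adjp 0.574).

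At 6 months Katnal2 ran from 5.89 to 6.34 in WT and from 5.59 to 6.10 in HET mice, and differed by -0.28 ± 0.116 (SE, 95% interval -0.52 to -0.03, limma adjp 0.604). Pogz differed by 0.06 ± 0.043 (SE, limma adjp 0.786) and Reln by 0.14 ± 0.10 (SE, limma adjp 0.793). The genotypes overlapped for each of these 3 genes.

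At 12 months 25 of the 33 differences were positive, more than the 12, 12 and 18 at the earlier ages. Over all genes tested the median difference at 12 months was 0.00459. Setd5 ran from 11.30 to 11.74 in WT and from 11.70 to 11.75 in HET mice and differed by 0.14 ± 0.064 (SE, 95% interval 0.01 to 0.28, limma adjp 0.400), which was 0.03 within replicates 1 to 3 and 0.26 within replicates 4 to 6. Reln ran from 10.76 to 11.50 and from 11.28 to 11.72 and differed by 0.25 ± 0.111 (SE, 95% interval 0.01 to 0.48, limma adjp 0.409). Asxl3 ran from 7.68 to 8.71 and from 8.45 to 8.73 and differed by 0.24 ± 0.131 (SE, 95% interval -0.04 to 0.51, limma adjp 0.488). In all 3 genes the WT range reached lower than the HET range.

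The low end of the WT range was a single mouse for Setd5, Reln and Asxl3. Without WT 12 month replicate 6, 13 of the 33 differences were positive and their median was -0.02. Over all genes tested 8536 of 17276 were then positive. The 3 differences became 0.09 for Setd5 (limma adjp 0.519), 0.14 for Reln (limma adjp 0.546) and 0.09 for Asxl3 (limma adjp 0.685). The excess of positive differences at 12 months was thus not present without this library. That fit kept WT 12 month replicate 2, which was the highest of its group for 28 of the 33 genes. A high WT library lowers HET minus WT differences, so the lean to negative values there is not free of single libraries either. Gene lists outside the 33 leaned the same way with all libraries, with 32 of 45 other chromatin regulators, 27 of 37 other synaptic genes and 27 of 33 other autism risk genes positive, and medians of 0.04, 0.05 and 0.06.

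The spread within groups was smaller without the 3 libraries low for long transcripts. These libraries were set apart by low values of the 33 genes, so a smaller SD of those genes without them was fixed in advance. The median SD over the 33 genes was 0.209 in WT mice of 12 months and 0.0743 in HET mice, while over all genes tested it was 0.184 and 0.122. Without WT 12 month replicate 6 the WT value was 0.119, and 0.147 over all genes tested. At E14.5 the median SD over the 33 genes was 0.203 in WT and 0.217 in HET mice, and 0.105 and 0.103 without replicate 1 of each. Over all genes tested it was 0.179 and 0.172, and 0.156 and 0.13 without them. At 1 month the median SD over the 33 genes was 0.0837 and 0.0824, and at 6 months 0.0931 and 0.0791.

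Whether the genotype difference changed with age was tested across all 48 mice. For the change from E14.5 to 12 months 0 of the 33 genes were called by limma, against 0.0809% of all genes, and the lowest p-values belonged to Asxl3 at 0.43 ± 0.189 (SE, limma adjp 0.367), Dscam at 0.40 (limma adjp 0.408) and Tcf4 at -0.21 (limma adjp 0.474). With a replicate block Asxl3 was called (limma adjp 0.0905). Without WT 12 month replicate 6 the Asxl3 value was 0.29 (limma adjp 0.65), and 18 of the 33 differences were positive against 26 with it. Without all 3 libraries that were low for long transcripts 0 were called by limma, 3 had an unadjusted p below 0.05, and 16 were positive with a median of -0.01, against 0.07 with them. For the change from 1 to 12 months 0 were called, against 0.0116%, with Setd5 at 0.19 ± 0.078 (SE, limma adjp 0.368) lowest. From 6 to 12 months 0 were called, against 0.0579%, with Setd5 at 0.18 (limma adjp 0.491) lowest. Without WT 12 month replicate 6 these Setd5 values were 0.13 and 0.13 (limma adjp 0.655 and 0.832). From E14.5 to 1 month and from 1 to 6 months 0 were called, as of all genes tested (0%), with Tcf4 at -0.24 (limma adjp 0.998) and Katnal2 at -0.34 (limma adjp 1) lowest. Unadjusted p-values lay below 0.05 for 2, 2, 1, 1 and 1 of the 33 genes in these 5 comparisons, against 11.6%, 11.2%, 8.71%, 4.67% and 3.38% of all genes, and the last 2 were added after values had been seen.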

How the data were processed

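RNA-seq of cortex was made from 48 mice, 6 per genotype and age. The authors aligned reads to mm9 and quantified genes with tools that the submitters' processing notes list as STAR 2.5.2b, Salmon 0.11.3 and DESeq 1.22.2, beside DESeq2, and deposited variance-stabilized log2 values for 24444 genes. Over all samples, the means of replicates 1 to 3 and of replicates 4 to 6 differed by at most 3.38e-14 in any gene, so a difference between these sets was removed before deposit and the spread between mice may be understated. Of all values, 15.7% lay at the floor of 2.14. These values do not keep read depth. The authors list it for each sample in their supplement, and it was not used here. Sample medians ran from 8.64 to 8.71.

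Genes whose mean lay at least 0.5 above the floor were tested with limma 3.58.1 (R 4.3.3) with an intensity trend, two-sided, with Benjamini-Hochberg adjustment over all genes tested. Genotypes were compared within an age and successive ages within a genotype, each in a fit of 12 samples, and differences of genotype effects in a fit of all 48. The scripts were tested on simulated data. Groups came from the sample labels. The replicate number was not treated as a pairing. Every member was named, with its test values for the 3 lowest p-values or, at each age step, up to 4 called members with the largest rise and 4 with the largest fall, and other values were named after they had been seen. The members, their roles, the other lists and the tests were chosen with earlier results of these data known. Alternatives comprised another normalization or centring, no filter, no trend, a threshold of 0.05, a single fit, a replicate block, a marker covariate at E14.5 and leaving out each library. Leaving out the libraries low for long transcripts together, and the spread without them, was chosen after seeing the data. Promoters came from RefSeq and gene positions from the mm9 annotation. Intervals are at 95%.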

Additional observations from a re-analysis of the deposited data

Results flagged for a closer look

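Within groups of 6 mice, 33 of 264 combinations of a gene and a group held a value that stood apart from the other 5, by Dixon's criterion at 95%. Chance gives about 1 in 20, or 13.2. Most of these values came from the libraries that were low for long transcripts, and their part in them was not tested. In HET E14.5 replicate 1 there were 15 low values of VST. Chromatin regulators made up most of them, with Arid1b at 11.66, Ash1l at 11.27, Asxl3 at 10.56, Ankrd11 at 11.89, Kmt2a at 11.82, Kmt2c at 11.77, Pogz at 11.67, Kdm5b at 12.44 and Kdm6b at 11.92. The others were Tcf20 at 12.02, Med13l at 11.22, Ank2 at 12.65, Nlgn3 at 10.74, Reln at 11.66 and Trio at 12.19. WT E14.5 replicate 1 was low for Ankrd11 at 12.06, Med13l at 11.44, Reln at 11.86 and Trio at 12.46. WT 12 month replicate 6 was low for Ash1l at 11.95, Asxl3 at 7.68 and Ankrd11 at 12.08, and high for Katnal2 at 6.48, where the other 5 mice had a mean of 5.93. HET 1 month replicate 3 was low for Kdm5b at 10.87 and high for Shank3 at 13.71. Single values stood apart in 8 further libraries. Those below their group were Asxl3 in HET 12 month replicate 6 at 8.45, Kdm6b in HET 6 month replicate 5 at 9.86, Tcf4 in WT 6 month replicate 1 at 13.30, Dyrk1a in WT 1 month replicate 6 at 11.49 and Trip12 in HET 12 month replicate 3 at 12.50. Those above it were Kmt2a in HET 6 month replicate 4 at 12.94, Dscam in HET 6 month replicate 6 at 11.35 and Nlgn3 in WT 6 month replicate 2 at 11.58.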

How the results depend on the processing

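Of 478 repeats of a count of members called under another setting, 462 stayed within 1.5 times of the reported count, or at 0 where that count was 0. Of 310 repeats of a median, 300 stayed within the spread between replicates. For differences of genotype effects the repeats also left out libraries of other ages, which cannot move the estimate. A threshold of 0.05 cannot raise a count of 0. Many repeats could thus hardly change a result, and the tallies are no measure of stability. Of 1796 repeats for named members, 1725 kept their direction and their side of the threshold, 63 lost the call, 1 gained it, 1 reversed and 6 values with no test moved by more than the spread between replicates, within the sets of replicates 1 to 3 or 4 to 6. Asxl3, Kdm6b, Kdm5b, Ank2, Ptchd1, Shank2 and Shank3 stayed called from E14.5 to 1 month, in both genotypes, under every alternative run for them. The reversal was Ptchd1 at E14.5, at 0.063 with the marker mean as a covariate. Under quantile normalization the median of the chromatin regulators from E14.5 to 1 month was -0.92 in WT and -0.94 in HET mice. For the synaptic genes it was 0.84 and 0.93 as a mean over members and 1.48 and 1.91 for the strict synaptic group. From 1 to 6 months the synaptic median without single libraries ranged from -0.136 to -0.068 in WT and from -0.128 to -0.060 in HET mice, with a mean over members of -0.051 in HET mice. The HET count over that step was 5 in a single fit of 48. From 6 to 12 months the HET count was 0 in a single fit of 48, 1 without a filter, 0 under quantile normalization, 0 without a trend and 0 at a threshold of 0.05, and 0 to 6 without single libraries, and the synaptic median was -0.030 under quantile normalization. Lower counts at a threshold of 0.05 follow from the threshold, and for the other settings the cause was not tested.

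The replicate numbers were shared between groups. With a replicate block the counts of members called were 0 for genotype at each age, 32, 9 and 0 for the successive WT steps and 31, 11 and 4 for the HET steps. In the last of these Trio was no longer called (limma adjp 0.12). For the difference between the genotype effects of 12 months and E14.5 the block called 1 gene, Asxl3 at 0.43 (limma adjp 0.0905), and leaving out single libraries called 0 to 1, with the call made without WT E14.5 replicate 6. At E14.5 the deviations of same-numbered mice correlated at a mean of 0.23 over genes, above 0.1 in 4 of 6 pairs, and 3 of 6 mice correlated best with their own number. At the other ages the mean was 0.02, 0.05 and -0.03. Read depth was not used, so what it limits was not assessed.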
